A study of Pimephales promelas with 12 samples.

Results

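The very abundant liver contigs are 100 of the 46309 contigs with a read in any library of a tissue survey of the fathead minnow (Pimephales promelas), a small cyprinid fish used in aquatic toxicology. A contig was a member where its read count averaged at least 10000 over the 3 liver libraries and its mean CPM in liver (the count per 1000000 counts of the library, its size scaled by the trimmed mean of M-values, TMM) was at least 4 times that in each other tissue. The survey sequenced liver, gut, hypothalamus and telencephalon from 3 adult males of a laboratory culture, for which the labels name no treatment before killing, as 1 library per tissue and fish or 12 libraries in all. Library totals were 14546298 to 16721570 counts in liver and 17729942 to 22589095 in the other 3 tissues.

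The rule used the liver counts and the liver ratios, so the high liver level of the members and their distance from the other tissues are described here with no test. What the rule did not use is the order of gut, hypothalamus and telencephalon among themselves, beyond a cap on each, and the differences between the fish. These were tested.

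The liver makes most of the proteins that circulate in blood plasma, such as apolipoproteins, transferrin, complement and clotting factors, and a few such messages can fill much of its RNA. The lining of the gut shares part of this secretory and lipid-carrying work. The hypothalamus governs the pituitary and the telencephalon is the front of the forebrain, and neither is a main source of plasma proteins. This is background to the tissues and gives no identity to any contig. The contigs carry assembly names with no gene names, and the liver label could not be checked against marker genes. Only names, not sequences, were compared with the 64593 genes of a RefSeq gene table (assembly fPimPro1.hap1.1). In that comparison 0 of the members and 0 of all contigs matched, which says nothing on the genes they come from. Names are given below without the prefix FHM_All_PTA_Assem. that most assembled contigs share.

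Of the 100 members, 90 were assembled contigs, 5 were isoforms from PacBio long reads, 4 were single sequences left over by the assembly and 1 was an expressed sequence tag. Over all contigs these classes made up 47.2%, 10.2%, 17.8% and 24.2%. The 75 other contigs with a mean of at least 10000 liver counts that missed the ratio were 80% assembled contigs. Most sequences very abundant in liver were thus of this class, whether or not they met the ratio. The 5 PacBio members were 604 to 1084 bases long by their names, all shorter than the median of 1237 bases over all PacBio isoforms. Per 1000 bases they stood at 1005 to 5466 CPM in liver, the highest of them being c31644/f1p0/946. For all other members no length was used, so their CPM values are not levels per length. Differences in CPM between contigs may thus partly be differences in length.

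The members took 32.1%, 32.6% and 33.9% of all counts of the 3 liver libraries, or 32.9% ± 0.912 (SD, n = 3). They took 1.84% ± 0.102 of the gut counts, 0.474% ± 0.0361 in hypothalamus and 0.394% ± 0.0533 in telencephalon (SD, n = 3 each). No liver library overlapped a library of another tissue in this share. The larger part of the gut share came from 1 contig, 56.C1. Without it the members had 29.5% ± 0.552 of liver counts, 0.876% ± 0.0662 of gut counts, 0.461% ± 0.0342 of hypothalamus counts and 0.384% ± 0.0521 of telencephalon counts. The 75 other abundant contigs were spread over the tissues, with 19.2% ± 1.80 of liver counts, 14.5% ± 1.51 of gut counts, 10.5% ± 1.19 of hypothalamus counts and 9.53% ± 0.639 of telencephalon counts. In bulk tissue, fewer cells of a type and less RNA per cell cannot be told apart.

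The counts were uneven among the members. Mean liver counts ran from 10347 to 529715, with a median of 20392. Of the members, 10 averaged at least 100000 counts, 42 between 20000 and 100000, and 48 less than 20000. The highest 8 held 47.9% of the members' liver counts, which was 15.7% of all liver counts, and the first of them held 10.3% of the members' counts.

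That first contig, 56.C1, had 511927, 508659 and 568559 counts in liver, against 177379, 194653 and 200109 in gut, 2389, 3422 and 2382 in hypothalamus and 1763, 1901 and 1938 in telencephalon. Its mean CPM was 5.07 times higher in liver than in gut, and 507 times and 721 times higher than in hypothalamus and telencephalon. It was thus abundant in both liver and gut, with no overlap between any of the libraries of those tissues and those of the brain.

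Contig 639.C1 had 438804, 328921 and 324516 counts in liver, against 947, 65 and 766 in gut, 186, 269 and 250 in hypothalamus and 239, 207 and 127 in telencephalon. Contig 23010.C1 had 286839, 444312 and 360206 counts in liver, against 767, 253 and 784 in gut, 361, 435 and 204 in hypothalamus and 273, 283 and 174 in telencephalon. Singlet_12255 had 171213, 453091 and 333880 counts in liver, against 428, 96 and 647 in gut, 188, 372 and 119 in hypothalamus and 98, 274 and 156 in telencephalon. In these 3 contigs liver stood 1101, 1088 and 1466 times above gut, the next highest tissue, and gut replicate 2 was the lowest gut library each time.

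Contig 840.C2 had 259899, 310860 and 323445 counts in liver, against 871, 547 and 1226 in gut, 1787, 2399 and 1537 in hypothalamus and 1811, 1888 and 1678 in telencephalon. Contig 2253.C1 had 201768, 111685 and 153313 counts in liver, against 1441, 889 and 1145 in gut, 2377, 2623 and 2720 in hypothalamus and 3009, 2414 and 2738 in telencephalon. By mean CPM both were higher in each brain region than in gut, the reverse of the order in the other 6 of the highest 8. Liver was 410 times the next tissue for 840.C2 and 146 times for 2253.C1.

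Contig 870.C1 had 278424, 324664 and 267568 counts in liver, against 1771, 662 and 1507 in gut, 515, 736 and 284 in hypothalamus and 382, 343 and 212 in telencephalon. Contig 654.C2 had 127590, 88793 and 211203 counts in liver, against 389, 107 and 606 in gut, 163, 145 and 161 in hypothalamus and 148, 126 and 133 in telencephalon. Liver was 398 times gut for 870.C1 and 702 times gut for 654.C2. The liver libraries were close for 56.C1 and 870.C1, with coefficients of variation (CV) of 7.91% and 8.45% in CPM, and far apart for Singlet_12255 and 654.C2, at 43.0% and 45.4%.

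**Figure D1:**
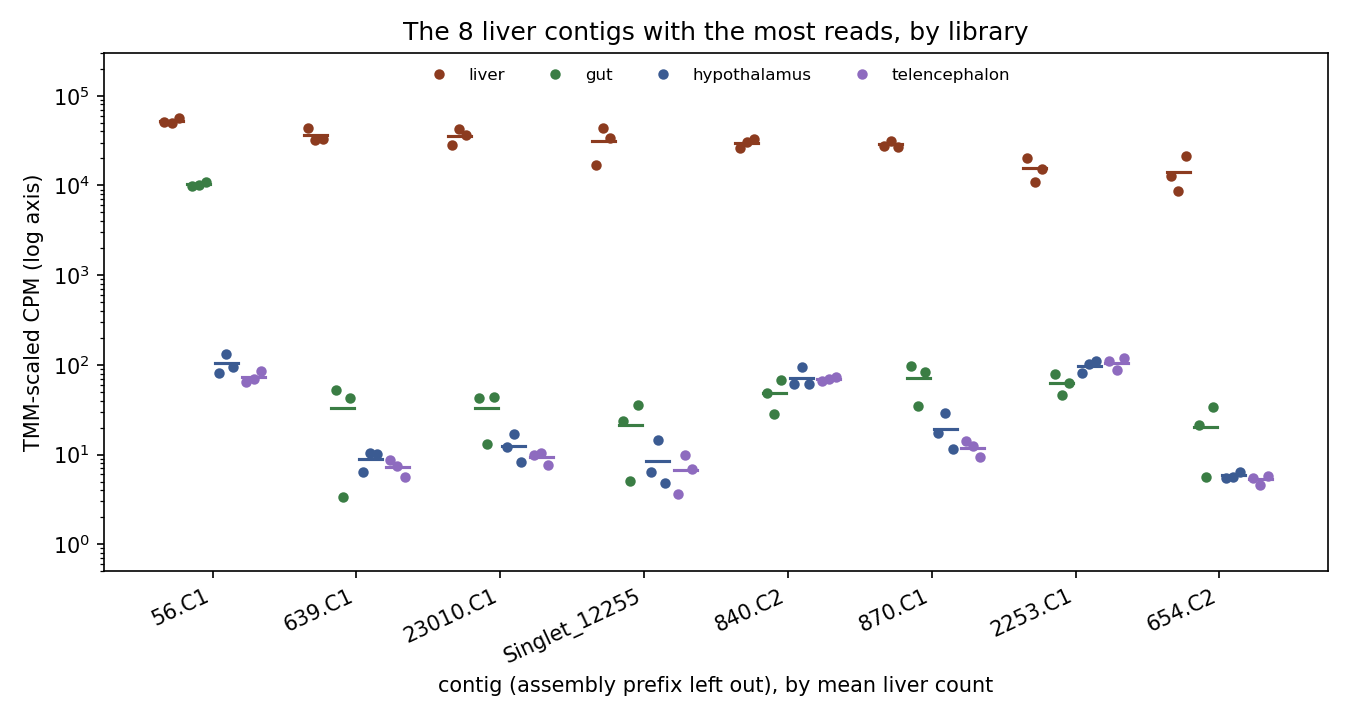
TMM-scaled CPM, on a log axis, of the 8 members with the highest mean liver counts in each of the 12 libraries. Points are libraries and bars are means of 3, with liver, gut, hypothalamus and telencephalon from left to right; gut is close to liver only for 56.C1, at 10378 CPM against 52575 CPM in liver.

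Over all members, the next highest tissue after liver was gut for 72, hypothalamus for 21 and telencephalon for 7. The median ratio of mean CPM in liver was 243 against gut, 495 against hypothalamus and 547 against telencephalon. Against the next highest tissue the ratio ran from 4.01 to 1761 with a median of 132, where 16 members lay between 4 and 10, 33 between 10 and 100, 19 between 100 and 500, and 32 above 500. At least 1000 times more CPM in liver was seen in 19 members against gut, 39 against hypothalamus and 40 against telencephalon. These ratios rest on the scaling, since the TMM factors of the liver libraries were 0.616 to 0.682 and those of the others 0.917 to 1.40. With library totals alone the median ratio to the next highest tissue was 77.1.

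The highest ratios were in contigs with few reads outside liver. Contig 24662.C1 had 30087, 76088 and 22139 counts in liver, against 51, 14 and 65 in gut, 22, 56 and 21 in hypothalamus and 8, 54 and 20 in telencephalon, a ratio of 1761 to the next highest tissue. Contig 648.C2 had 35998, 32988 and 19628 counts in liver, against 58, 7 and 38 in gut, 12, 27 and 20 in hypothalamus and 23, 26 and 15 in telencephalon, a ratio of 1541. With Singlet_12255 these were the 3 highest ratios.

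The lowest ratios were of more than 1 kind. Contig 22.C3 had 17531, 20082 and 15513 counts in liver, against 6947, 6122 and 10948 in gut, 102, 115 and 140 in hypothalamus and 55, 63 and 53 in telencephalon, so that liver was 4.01 times gut and 387 times hypothalamus. Contig 2830.C1, with a ratio of 4.34, had 18558, 23045 and 15150 counts in liver, against 13118, 7043 and 3509 in gut, 108, 85 and 17 in hypothalamus and 77, 57 and 22 in telencephalon. Both were shared by liver and gut and scarce in brain. Contig 125.C1, with a ratio of 4.07, had 13335, 14614 and 6817 counts in liver, against 3525, 6129 and 5910 in gut, 5977, 7737 and 7289 in hypothalamus and 4875, 4082 and 5930 in telencephalon, and was thus plentiful everywhere.

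Members close to the thresholds show what the rule separated. Just inside the count were 3222.C1 with a mean of 10347 liver counts and 8364.C2 with 10508, and just outside were 3913.C1 with 9934 and 3297.C2 with 9918, whose ratios to the next tissue were 625 and 601. Just inside the ratio were 22.C3 and 125.C1, and just outside were 3491.C1 with a ratio of 3.99 and 789.CB1 with 3.52 and a mean of 110895 liver counts. Of the 75 abundant contigs outside the rule, 66 were still highest in liver and 38 were within 2-fold between liver and the highest other tissue.

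**Figure D2:**
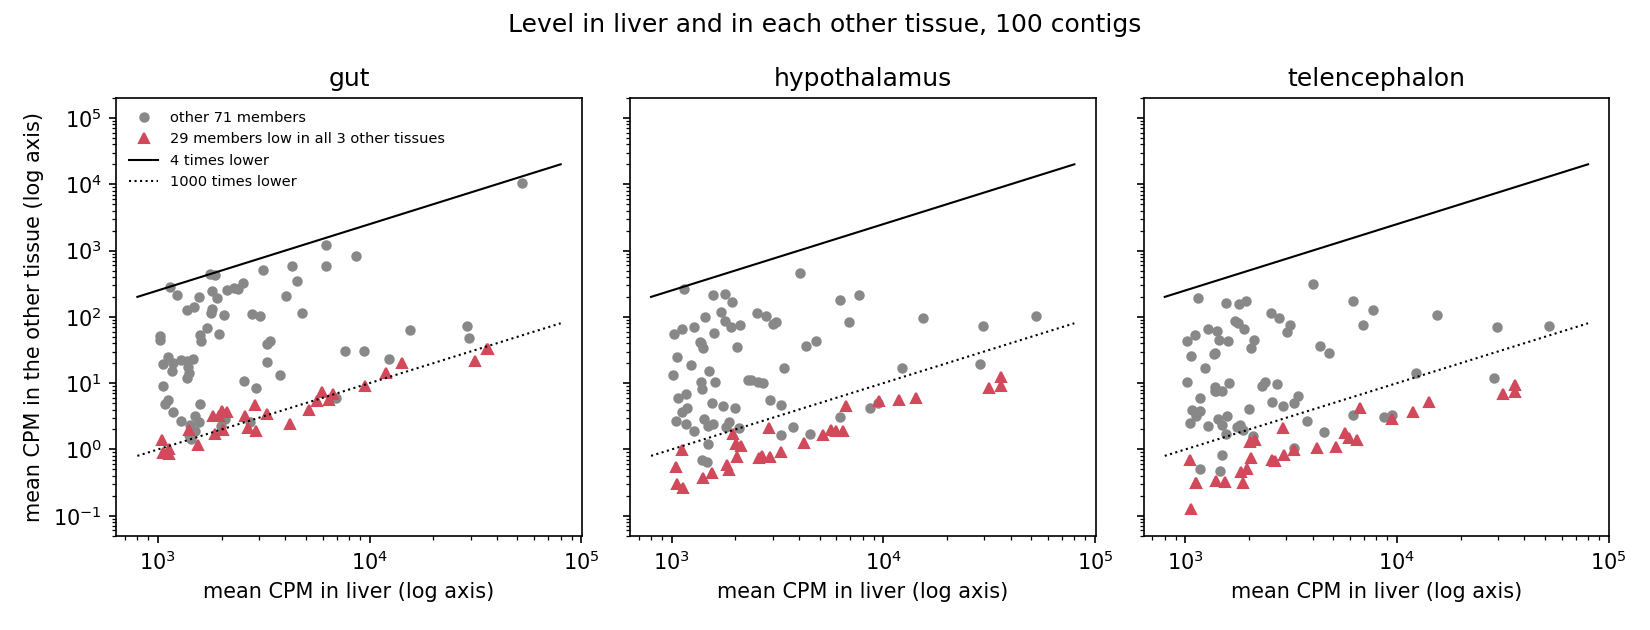
Mean CPM of each of the 100 members in liver (horizontal, log axis) against gut, hypothalamus and telencephalon (vertical, log axis), with lines at 4 times and 1000 times below liver. Triangles are the 29 members with liver at least 500 times gut and at least 1000 times each brain region, which lie in a narrow band, near the lower line in gut and on or below it in both brain regions, and circles are the other 71.

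These 29 members, picked by cuts set after the values had been seen, held 13.3% of all liver counts. They included 639.C1, 23010.C1, Singlet_12255, 654.C2, 24662.C1, 648.C2 and 3 of the 5 PacBio members, and their mean liver counts ran from 10579 to 364080. Outside liver their counts were small, with medians of 73, 25 and 112 in the 3 gut libraries, 27, 28 and 25 in hypothalamus and 23, 31 and 21 in telencephalon.

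Among the 29, the level outside liver followed the level in liver. Pearson's r between log2 mean CPM in liver and in the other tissue, across contigs, was 0.952 for gut, 0.931 for hypothalamus and 0.918 for telencephalon, against 0.285, 0.165 and 0.157 over all 100 members. The 29 were chosen by these ratios, which holds them in a band, contigs are not independent replicates, and the points of a tissue share its libraries. The CPM values are also not scaled by contig length, which is the same for a contig in each tissue. These coefficients are therefore a description. The origin of the few counts outside liver was not tested. Counts alone cannot tell transcripts of gut and brain cells from liver RNA in those samples or from liver reads placed in other libraries.

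Expressed in ppm of the same contig's mean CPM in liver, the median of the 29 was 1187, 203 and 1436 ppm in the 3 gut libraries. It was 206, 410 and 355 in hypothalamus and 280, 318 and 257 in telencephalon. The medians of gut replicates 1 and 3 were thus above that of every brain library. That of gut replicate 2 was level with hypothalamus replicate 1 and below the other brain medians. The quartiles of these 2 libraries overlapped, at 136 to 440 and 145 to 384 ppm. The part that this difference between gut libraries has in the gut ratios of the 29 was not tested. The cuts on the 29 capped each brain region lower (liver at least 1000 times) than gut (liver at least 500 times). Gut medians above brain medians are thus partly set by the cuts.

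**Figure D3:**
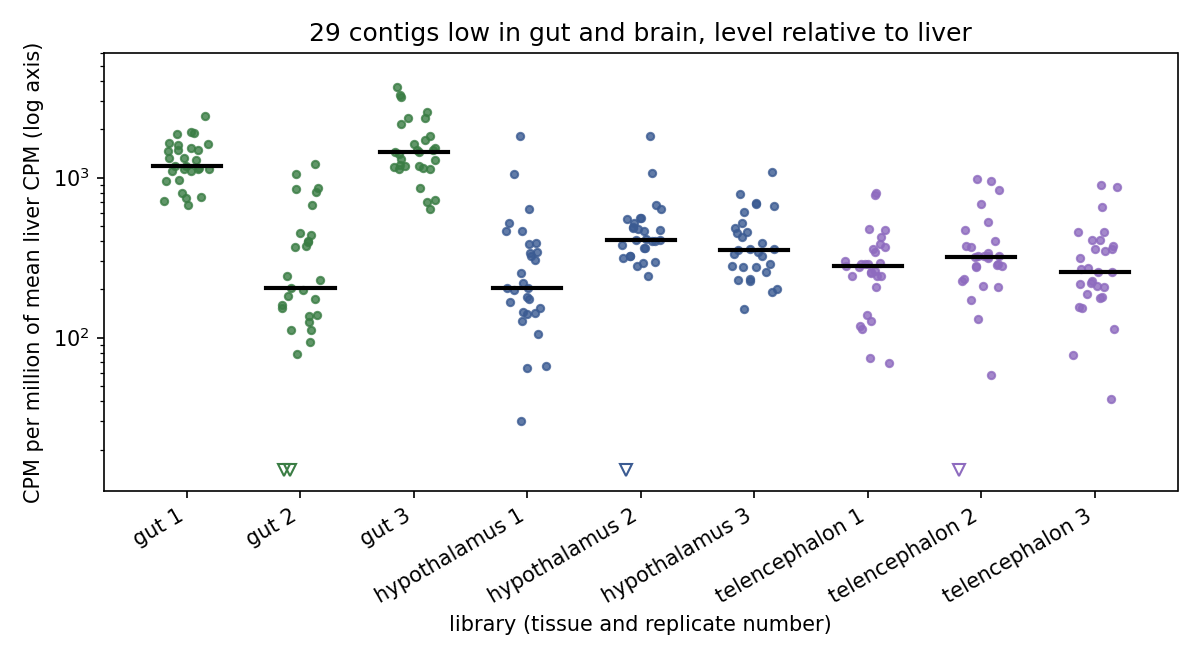
CPM in each gut, hypothalamus and telencephalon library in ppm of mean liver CPM (log axis) for the 29 members that were low outside liver. Points are contigs, bars are medians over the 29, and open triangles at the bottom mark counts of 0; the median is 203 in gut replicate 2, against 1187 and 1436 in the other gut libraries.

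Only 4 member values were 0, in 2 contigs of the 29. Contig 3285.C3 had 11442, 9061 and 13442 counts in liver, against 15, 0 and 31 in gut, 60, 14 and 9 in hypothalamus and 13, 10 and 2 in telencephalon. The other 3 zeros were those of 4607.C2 in gut, hypothalamus and telencephalon replicate 2. A count of 0 allows up to 3 counts, which was 0.157 CPM in gut replicate 2, 0.117 in hypothalamus replicate 2 and 0.109 in telencephalon replicate 2, from counting error alone.

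Whether the members differed between gut and brain was tested with edgeR's quasi-likelihood test fitted to all 42878 contigs that passed a filter on low counts, and all 100 members passed it. More members were higher in gut than in hypothalamus. At an adjusted p under 0.05, 35 were higher in gut and 11 lower, where 12.5% of all contigs tested were called higher in gut and 17.9% lower, or 30.5% in either direction. The median log2 fold change of the members was 1.33, and that of all contigs was -0.14. The 29 members low outside liver had a median of 1.42, with 3 called higher in gut and 0 lower. The other 71 had a median of 0.61, with 32 called higher in gut and 11 lower. The 29 were cut at liver at least 500 times gut but at least 1000 times each brain region. These cuts capped each brain region lower than gut. The order of gut and brain in the 29, and in the other 71, is thus partly set by the cuts. Of the 75 other abundant contigs, 58 were higher in gut (77.3%) and 3 lower, where the rule had capped the gut level in members only. With library totals in place of TMM the members split into 28 higher and 15 lower, or 43 in all, where 33.1% of all contigs were called. The medians became 0.89 for members and -0.61 for all contigs. With edgeR's filterByExpr, a stricter filter on low counts, 37 members were higher and 11 lower, where 41.4% of 31911 contigs were called.

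The 2 largest gut excesses over hypothalamus by the naming rule were in 400.C5 and 640.C2, at ranks 24 and 13 of the members by mean liver count. Contig 400.C5 had 6155, 6902 and 5947 counts in gut, against 45, 60 and 32 in hypothalamus, where liver had 51782, 57905 and 27882 (log2 fold change 7.64, SE 0.339, adjusted p = 8.4e-06, edgeR quasi-likelihood). Contig 640.C2 had 12737, 17646 and 14608 counts in gut, against 88, 131 and 108 in hypothalamus, where liver had 96650, 112663 and 53124 (log2 fold change 7.61, SE 0.336, adjusted p = 8.4e-06, edgeR quasi-likelihood). Contig 56.C1 was likewise higher in gut than in hypothalamus, with a log2 fold change of 6.65 (SE 0.318, adjusted p = 9.05e-06, edgeR quasi-likelihood). In all 3 the lowest gut library was far above the highest brain library.

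The members that were lower in gut than in hypothalamus were led by 3226.C1 and 1279.C1. Contig 3226.C1 had 37, 9 and 31 counts in gut, against 755, 3479 and 3515 in hypothalamus, where liver had 17328, 10881 and 15145 (log2 fold change -6.16, SE 0.83, adjusted p = 0.000811, edgeR quasi-likelihood). Contig 1279.C1 had 162, 34 and 128 counts in gut, against 2113, 2419 and 2137 in hypothalamus, where liver had 80132, 87806 and 42204 (log2 fold change -3.82, SE 0.554, adjusted p = 0.00119, edgeR quasi-likelihood). Both were thus lowest in gut, with brain between gut and liver but far below liver. Mean CPM in liver was 14.2 times that in hypothalamus for 3226.C1 and 82.3 times for 1279.C1. For 3226.C1 hypothalamus replicate 1 was the lowest of the 3 by more than 4-fold in counts.

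Against telencephalon the picture was the same in direction. Of the members 46 were higher in gut and 9 lower, where 18.9% of all contigs were called higher in gut and 22.6% lower, or 41.5% in all (edgeR quasi-likelihood). The median log2 fold change was 1.60 in members and -0.06 in all contigs. It was 1.91 in the 29 members low outside liver, with 11 called higher in gut and 0 lower. In the other 71 it was 0.90, with 35 called higher in gut and 9 lower. The cuts that picked the 29 partly set the order of gut and telencephalon in both groups. Of the 75 other abundant contigs 58 were higher in gut (77.3%) and 2 lower. With library totals the members split into 33 higher and 17 lower, or 50 in all, where 45.2% of all contigs were called. The medians were then 1.02 in members and -0.64 in all contigs. With the stricter filter, 48 of 99 members tested were higher and 9 lower, where 54.9% of 32324 contigs were called. The comparisons with hypothalamus and telencephalon share the gut libraries.

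Contig 640.C2, described above, had 97, 91 and 56 counts in telencephalon and a log2 fold change of 8.10 in gut over telencephalon (SE 0.25, adjusted p = 2.86e-06, edgeR quasi-likelihood). Contig 2830.C1 had 13118, 7043 and 3509 counts in gut, against 77, 57 and 22 in telencephalon (log2 fold change 7.85, SE 0.705, adjusted p = 0.000121, edgeR quasi-likelihood). Contig 3226.C1 had 387, 1110 and 1791 counts in telencephalon and was lower in gut by a log2 fold change of -4.89 (SE 0.788, adjusted p = 0.00212, edgeR quasi-likelihood). Contig 1279.C1 had 1649, 1599 and 2372 counts in telencephalon and a log2 fold change of -3.56 (SE 0.59, adjusted p = 0.0024, edgeR quasi-likelihood). Gut and telencephalon libraries did not overlap in any of these 4.

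By level alone, 12 members combined a liver level under 20 times gut with one at least 100 times each brain region, among them 56.C1, 640.C2, 400.C5, 22.C3 and 2830.C1. In the other direction 21 members had a higher mean CPM in both brain regions than in gut. Of these, 1926.C1, named after its values were seen, had 305, 636 and 725 counts in gut, against 5500, 7970 and 3799 in hypothalamus and 3093, 3934 and 2960 in telencephalon, where liver had 76533, 89810 and 66146. It was lower in gut than in hypothalamus (log2 fold change -2.85, SE 0.41, adjusted p = 0.00114) and than in telencephalon (log2 fold change -2.02, SE 0.309, adjusted p = 0.00165, both edgeR quasi-likelihood).

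Between the brain regions, 1 member differed at an adjusted p under 0.05 in edgeR's quasi-likelihood test. Of all contigs tested, 0.478% were called in either direction and 0.226% were called lower in hypothalamus. DESeq2 called 5, of which 4 were higher in hypothalamus, where 2.7% of the 31457 contigs to which it gave an adjusted p were called, and 5 members had none. Contig 3337.C3 had 12, 29 and 14 counts in hypothalamus, against 257, 186 and 146 in telencephalon, where liver had 14996, 17068 and 10328 and gut 38, 6 and 47. It was lower in hypothalamus with no overlap of libraries (log2 fold change -3.44, SE 0.478, adjusted p = 0.0399, edgeR quasi-likelihood). The call was lost, at an adjusted p of 0.147 to 0.207 in edgeR, when either hypothalamus replicate 1 or 3 or any 1 telencephalon library was left out, while the log2 fold change stayed between -3.14 and -3.55 in those fits.

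At an unadjusted p under 0.05 in edgeR's quasi-likelihood test, 11 of the 100 members differed between the brain regions, where 5.83% of all contigs did. By fitted value 78 members were higher in hypothalamus than in telencephalon, with a median log2 fold change of 0.24 against 0.00 in all contigs, and 67 of the 75 other abundant contigs were higher too. The members share their libraries, so these 78 are not separate observations.

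The spread of the 3 males in liver was wider for the typical member than for the other abundant contigs, but large spreads were not more frequent. The CV of liver CPM over the 3 fish had a median of 27.4% in members, from 6.77% to 165%, and of 17.5% in the 75 others, from 1.60% to 122%. The highest liver library was at most 1.5 times the lowest in 37 of the 100 members and in 39 of the 75 others. It was at least 4 times the lowest in 10 members and 9 others, and the CV was at least 60% in 13 members and 14 others. The lowest liver library was replicate 3 for 46 members, replicate 1 for 26 and replicate 2 for 28. These spreads rest on 3 fish and were not tested.

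For 4 members the lowest liver library fell below the highest library of another tissue, so that membership rested on 1 or 2 fish. Contig 2572.C1 had 93907, 27104 and 689 counts in liver, against 5049, 3283 and 3079 in gut, 12677, 13874 and 9791 in hypothalamus and 8287, 8422 and 7843 in telencephalon. Its liver level varied 135-fold in CPM between fish while the other tissues stayed close. Contig 8364.C2 had 266, 30604 and 655 counts in liver, against 748, 1176 and 909 in gut, 299, 522 and 232 in hypothalamus and 200, 379 and 231 in telencephalon.

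Liver replicate 2 alone carried 8364.C2 over the threshold, and the same number was also the highest in gut, hypothalamus and telencephalon, by far less. Singlet_12855 had 16344, 46244 and 2200 counts in liver, against 6417, 2798 and 4821 in gut, 2228, 2384 and 1319 in hypothalamus and 878, 1216 and 1348 in telencephalon. The last of the 4 was 4607.C2. In all, 11 members had a lowest liver CPM under 4 times their highest CPM elsewhere, and 30 had a liver library under 10000 counts.

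The replicate numbers were read as the 3 fish, though the labels give only the numbers. A model with tissue and replicate number over the 12 libraries tested for a difference between fish, taken as common to the tissues. A call does not show that each tissue differed alike. Of the members 10 were called by edgeR's quasi-likelihood test at an adjusted p under 0.05, where 6.95% of all contigs were, and 5 of the 75 other abundant contigs (6.67%). The members' share was thus little above that of all contigs. Without the liver libraries 6 members were called, where 5.26% of all contigs were. Without replicate 1, replicate 2 or replicate 3 in all tissues 2, 7 and 6 members were called, where 1.46%, 5.11% and 3.92% of all contigs were, so the members' count moved with that of all contigs.

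The largest range between fish was in 4607.C2. It had 31815, 44 and 22758 counts in liver, against 49, 0 and 122 in gut, 25, 0 and 22 in hypothalamus and 17, 0 and 17 in telencephalon. Replicate 2 was near or at 0 in every tissue, a fitted range between fish of 9.43 on the log2 scale (adjusted p = 1.69e-06, edgeR quasi-likelihood). That fitted size depends on the zeros and is no bound. Without replicate 2 the range was 0.28 and the adjusted p 0.77 in edgeR, so the call rests on that fish.

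Contig 3223.C2 had 6017, 31575 and 21749 counts in liver, against 25, 39 and 112 in gut, 6, 91 and 33 in hypothalamus and 4, 18 and 16 in telencephalon. Replicate 1 was the lowest in each tissue (range 2.31 on the log2 scale, adjusted p = 0.0133, edgeR quasi-likelihood). Contig 52.CB4 had 14685, 11521 and 9130 counts in liver, against 635, 101 and 83 in gut, 358, 94 and 115 in hypothalamus and 285, 110 and 85 in telencephalon. Replicate 1 was the highest in each tissue, by much more outside liver than in it (range 1.68, adjusted p = 0.00711, edgeR quasi-likelihood). Without replicate 1 neither was called, at an adjusted p of 0.999 in edgeR for both and ranges of 0.09 and 0.07. Without the liver libraries the range of 3223.C2 was as large, 2.36, but did not pass the test (adjusted p = 0.159, edgeR quasi-likelihood).

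The other 7 called members were 3308.C1, 22794.C1, 24884.C1, 866.C2, 3772.C1, 2830.C1 and 685.C3. Contig 866.C2 had 12600, 43820 and 7224 counts in liver, against 30, 98 and 31 in gut, 32, 83 and 51 in hypothalamus and 17, 63 and 44 in telencephalon, highest in replicate 2 each time (adjusted p = 0.0149, edgeR quasi-likelihood). Contig 3772.C1 had 13790, 36008 and 9373 counts in liver, against 906, 1696 and 494 in gut, 2962, 6782 and 3281 in hypothalamus and 3336, 5983 and 4087 in telencephalon, again highest in replicate 2 (adjusted p = 0.0178, edgeR quasi-likelihood). Contig 3308.C1 had 31069, 13020 and 49843 counts in liver, against 8854, 6146 and 13063 in gut, 1450, 1862 and 3187 in hypothalamus and 951, 888 and 3572 in telencephalon, highest in replicate 3 each time (adjusted p = 0.0136, edgeR quasi-likelihood). These last 2 contigs had 494 or more counts in every library, so their differences do not rest on single reads.

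**Figure D4:**
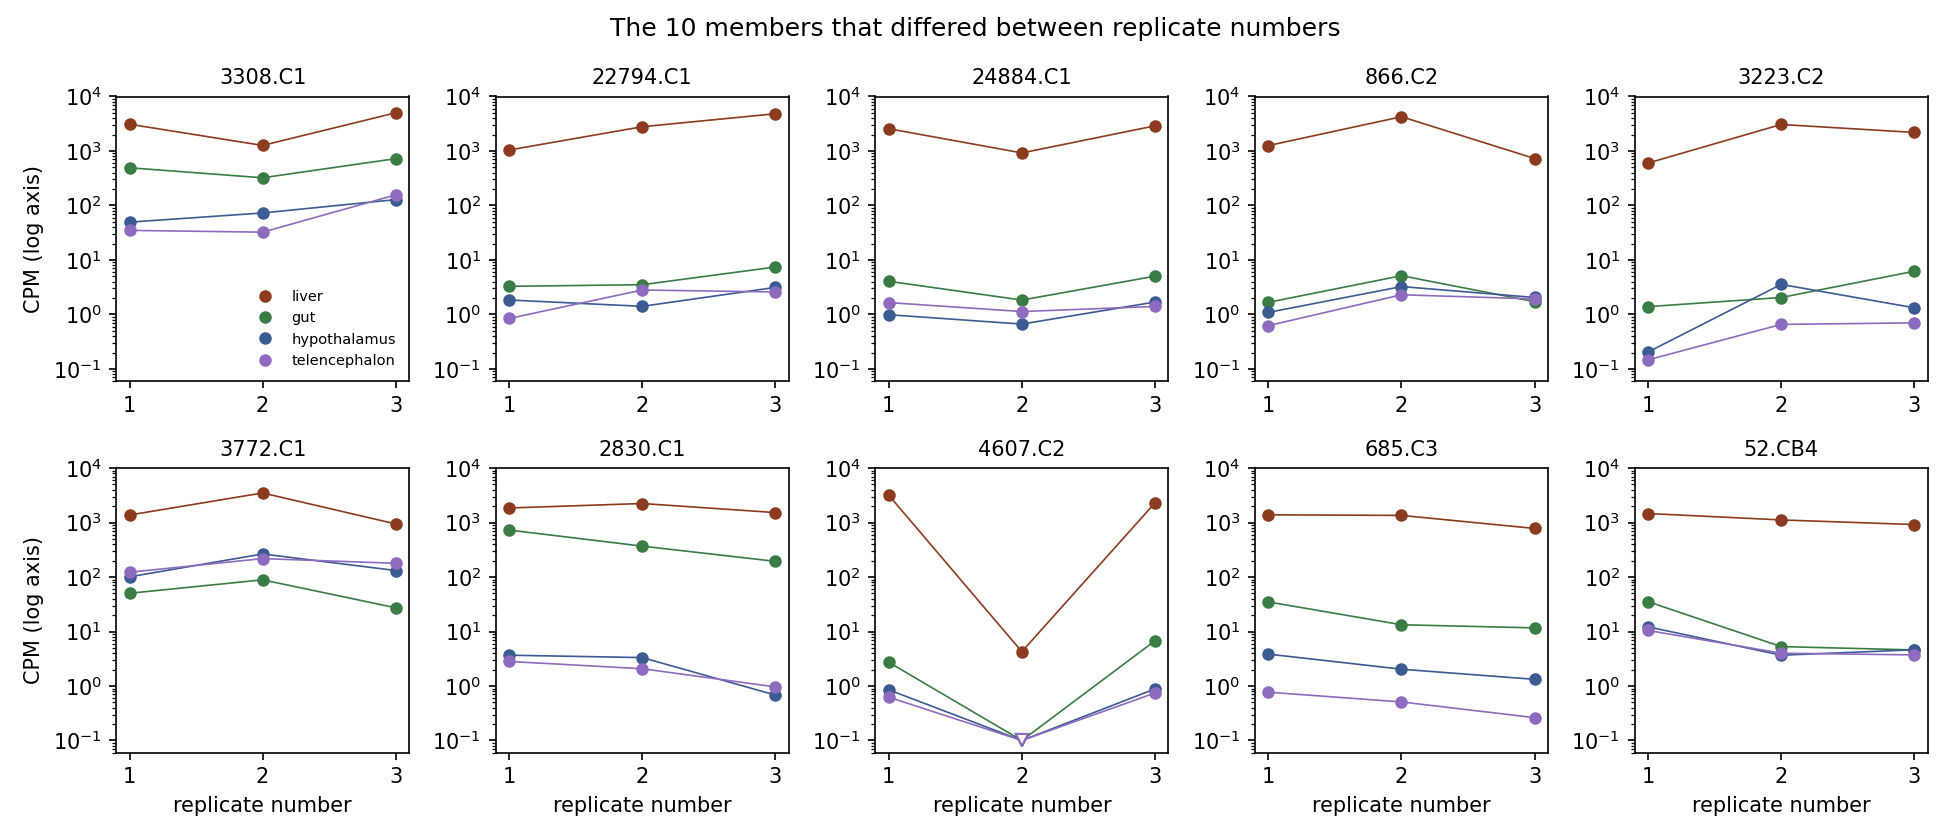
TMM-scaled CPM (log axis) of the 10 members called for a difference between replicate numbers, by replicate number, with 1 line per tissue to join the libraries of that tissue. Replicate numbers have no order, and open triangles mark counts of 0; for 4607.C2 replicate 2 lies at or near 0 in all 4 tissues.

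How far the other tissues followed the liver of the same fish was described over all members. For each library the difference of log2(CPM + 0.5) from the mean of its tissue was taken, and these differences were correlated across the 100 members between liver and each other tissue. The coefficients were 0.04 to 0.40 for the 9 pairs with the same replicate number and -0.35 to 0.14 for the 18 pairs with different numbers. In gut they were 0.34 to 0.40 for the same number, in hypothalamus 0.07 to 0.35 and in telencephalon 0.04 to 0.37. Among the 29 members that were low outside liver they were 0.15 to 0.70 for the same number and -0.61 to 0.46 for different numbers. Both sets include 4607.C2, whose replicate 2 was near or at 0 in every tissue, and coefficients without it were not computed. The differences of a contig cancel within a tissue. Positive coefficients for the same number thus partly force lower ones for different numbers. These are correlations across contigs of shared libraries, given as a description.

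The number in an assembled contig's name was read as that of a cluster of related sequences, and reads were kept only where they mapped to a single contig, so counts within a cluster are uncertain. The members with such a number were 89 in 85 clusters. Clusters 52 and 783 held 2 members each and cluster 4607 held 3. In cluster 4607, 4607.C4 had 109440, 87325 and 88729 counts in liver, against 541, 467 and 651 in gut, 118, 144 and 129 in hypothalamus and 102, 95 and 66 in telencephalon. Contig 4607.C3 had 38435, 38563 and 22499 counts in liver, against 1412, 388 and 360 in gut, 14, 72 and 41 in hypothalamus and 22, 43 and 17 in telencephalon. Replicate 2, which had 44 liver counts of 4607.C2, was thus well supplied with its relatives.

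Of the 85 clusters, 35 also held contigs that were not members, 90 in all. Of the 81 of these that passed the filter, 36 (44.4%) had a liver CPM at least 4 times that in each other tissue. So did 1912 of all 42878 contigs tested (4.46%), which include the 81 and the members. Among all tested non-members in clusters with more than 1 contig, the 81 included, it was 456 of 9448 (4.83%). Related contigs of the members thus met the liver ratio more often than these wider sets. They are not independent, as 1 cluster held 21 of the 90, and the difference was not tested. That the 36 had liver counts below the threshold of the rule is no finding, since with more counts they would be members. Some had few reads: 648.CB1 averaged 9083 liver counts, but 52.C28 only 9.67. How far reads were divided between related contigs was not tested.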

How the data were processed

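Messenger RNA selected from total RNA of 12 tissue samples was sequenced. The authors deposited whole-number counts per contig, not normalized, which rest on bowtie 2 alignments without PCR duplicates or reads that fit several places. In the methods the mapping target is given once as the assembled transcriptome and once as zebrafish sequences. As the names belong to fathead minnow sequences, counts were taken as reads on these, which was not tested. Versions of their tools: not given in the sources used here. Contigs absent from a library's list were set to 0. No gene names, lengths or sequences of the contigs were used, apart from lengths in PacBio names.

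The members, the groups of contigs and the tests were chosen with earlier results of these data known. Tissue pairs were fitted alone in R 4.3.3 with edgeR 4.0.16 (TMM scaling, quasi-likelihood test, Benjamini-Hochberg adjustment over all contigs with 1 count or more in 2 libraries of any tissue, threshold 0.05). DESeq2 1.42.0, edgeR's exact test, other scalings and filters, other rule thresholds, the replicate number as a block and leaving out each library served as alternatives. The tests were checked on simulated data. Differences between replicate numbers were tested with tissue and replicate number over all libraries.

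The study describes 3 individual males. Deviations of libraries from their tissue means, over 25929 contigs, correlated at 0.193 to 0.833 in all 18 same-number pairs. Pairs with different numbers were at -0.579 to 0.173, just below the lowest same-number value at their top. Deviations cancel within a tissue, which partly forces these lower values. On this basis numbers were read as fish. A difference between fish and one in handling shared by the libraries of a number cannot be told apart here. In the tissue pairs, p-values set a difference against the spread of the 3 fish within a tissue. These main fits did not pair the libraries of a fish, which the fits with the replicate number as a block did. For the replicate number, p-values set the difference between fish against the spread left after tissue and replicate number.

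Named contigs are the 8 with the most liver counts, the 3 highest and 3 lowest ratios, those next to each threshold, clusters with 3 members, up to 2 higher and 2 lower per tissue pair by the largest fold change called, and the 3 largest ranges called between fish. Others were chosen after their values were seen. In the libraries, 3 counts were 0.102 to 0.302 CPM. Reads are not independent molecules, so limits cover counting error only.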

Additional observations from a re-analysis of the deposited data

How the results depend on the processing

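With TMM scaling and the thresholds of the rule there were 100 members. There were 196 at a mean of at least 5000 liver counts and 52 at 20000, 89 to 135 under the other scalings, ratio thresholds and filters, 89 where the lowest liver CPM was at least 4 times the highest elsewhere (added after seeing the data), 67 where every library had to pass, and 100 to 111 without 1 replicate number. The median ratio to the next highest tissue was 132, and became 77.1 with library totals, 147 with DESeq2 size factors and 135 to 158 without 1 replicate number. The share of liver counts was 32.4% to 33.2% without 1 liver library. Each count of called members is followed by the share of all contigs called in the same fit. Gut against hypothalamus had 46 (30.5%), 35 to 46 without 1 library (22.6% to 31.5%), 49 by the exact test (33.2%) and 53 by DESeq2 (38%). Gut against telencephalon had 55 (41.5%), 42 to 65 without 1 library (33.2% to 39.6%), 61 by the exact test (42.8%) and 66 by DESeq2 (49.4%). With the stricter filterByExpr filter on low counts, gut against hypothalamus had 48 (41.4%). Gut against telencephalon then had 57 of 99 members tested (54.9%). Under that filter the members' shares were closer to those of all contigs than in the main fits. Between the brain regions 1 was called (0.478%), 0 to 2 without 1 library (0.007% to 0.69%) and 5 by DESeq2 (2.7%), and the cause was not tested. For a difference between fish 10 were called (6.95%), 6 without the liver libraries (5.26%), 4 in liver and gut alone (3.13%), 8 in the brain regions alone (4.57%), 14 by DESeq2 (10.3%), and 2 to 7 without 1 replicate number (1.46% to 5.11%), where fewer samples remain. With the replicate number as a block the 3 tissue comparisons gave 45 (32.6%), 60 (45.3%) and 1 (0.875%), no member count moving by over 1.5 times. The contigs named by the rule for the tissue pairs kept their direction under every alternative run. For 56.C1 and 1926.C1 no alternative was run. Outside liver the 29 low contigs had library medians of only 21 to 112 counts.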

Other observations

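Some contigs that share a cluster with a member missed the ratio of the rule. Contig 4607.C1 averaged 2239 CPM in liver, against 1086 CPM in gut. It had 33140, 19448 and 15104 counts in liver, against 37032, 17488 and 5135 in gut, 50, 21 and 23 in hypothalamus and 28, 21 and 50 in telencephalon, and the gut libraries differed more than 4-fold. The other 3 contigs of that cluster were members and had at most 1412 counts in any gut library. Contig 400.CB1, in the cluster of the liver and gut contig 400.C5, averaged 7011 CPM in liver, against 5129 CPM in gut, 7192 CPM in hypothalamus and 6984 CPM in telencephalon. Contig 1758.C1 was higher in gut than in liver, at 316 CPM in liver, against 447 CPM in gut, 119 CPM in hypothalamus and 107 CPM in telencephalon. These contigs were named after their values were seen, and whether the cluster numbers group copies of a gene, related genes or parts of a transcript was not tested.

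Contig 783.C2, a member, had 19032, 12339 and 10296 counts in liver, against 2707, 1595 and 2571 in gut, 17, 457 and 307 in hypothalamus and 13, 289 and 269 in telencephalon. Replicate 1 was thus the highest fish in liver and gut and the lowest in both brain regions. It was named after its values were seen and this order was not tested.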
